A study of Mus musculus with 8 samples.

Results

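Interferons are secreted proteins that tell cells of an infection. They bind the receptor pairs Ifnar1 with Ifnar2 or Ifngr1 with Ifngr2, and Janus kinases then activate STAT proteins, which together with interferon regulatory factors (the Irf genes) switch on a large set of defence genes. The genes described here belong to that response and lie outside the GBP and IRG families of interferon-inducible GTPases. They are receptors, transcription factors, sensors of foreign nucleic acid with related enzymes, antiviral effectors, brakes on signalling or on T cells, and chemokines. A list of 44 genes was set by name, with earlier results of these data known. Of these, 40 were measured among 12393 genes, each by the brightest probe set that the array annotation assigns to that gene alone. The probe set of Isg15 is shared with another gene, and Ifi44, Ddx58 and Xaf1 had no probe set assigned to them, so these 4 were not analysed here.

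Expression was measured in liver on 8 Affymetrix arrays, with 4 genotypes on a C57BL background, 2 arrays per genotype, and standard chow throughout. Wild-type mice carry both genes. SHP-/- mice lack SHP (small heterodimer partner, gene Nr0b2), a nuclear receptor that represses other transcription factors. OB-/- mice lack leptin, the satiety hormone of fat tissue, and are obese, and OB-/-/SHP-/- mice lack both. The labels describe no tissue-restricted deletion, and they do not say that paired arrays are different animals, so a p-value reflects only array-to-array spread, which could be technical. In whole liver, a change in the number of cells of a type and a change in RNA per cell cannot be told apart.

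Levels are given as deposited, on a log2 scale, and a difference of 1 is a 2-fold change. A gene was called where limma's moderated test gave a Benjamini-Hochberg adjusted p below 0.05 over all 12393 genes, and errors are standard errors (SE) of the difference. The check of the targeted gene was incomplete, since Nr0b2 RNA did not set SHP-/- apart from OB-/-, which has SHP. By limma it was not called in SHP-/- minus wild-type (-0.68, adjusted p = 0.286). It was lower in OB-/- minus wild-type (-0.72, adjusted p = 0.0258) and in OB-/-/SHP-/- minus OB-/- (-1.13, adjusted p = 0.0108). Nr0b2 read 8.74 and 8.71 for wild-type, 7.78 and 8.31 for SHP-/-, 8.01 and 8.01 for OB-/- and 7.11 and 6.66 for OB-/-/SHP-/-, and whether its probe set lies in the deleted part is not known here. OB-/- replicate 1 stood apart in the female transcript Xist (7.41, against 4.31 to 4.70 on the other arrays), and SHP-/- replicate 1 in the immediate-early gene Fos (11.95, against 5.17 to 6.98). The 3' probe set of Gapdh, which exceeds the 5' one as RNA degrades, had a mean difference from it of 0.90 for wild-type, 0.27 for SHP-/-, -0.04 for OB-/- and 0.07 for OB-/-/SHP-/-. Hepatocyte markers such as albumin were among the brightest signals on every array, with a log2 summed level of 15.85 to 16.06 over 6 markers.

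Without leptin, SHP loss (OB-/-/SHP-/- minus OB-/-) raised some antiviral effectors, transcription factors, brakes, and sensors or related enzymes of the interferon response. Of the 40 members, 16 rose, against 1.26% of all genes, and 0 fell, against 0.880% of all genes. At an unadjusted p below 0.05, 28 were higher (6.42% of all genes) and 1, Irf5, was lower (5.29% of all genes). The median difference over the 40 members was 0.64, against 0.01 over all genes. The arrays of the 2 genotypes did not overlap for 32 members that were higher (21.0% of all genes), and for 1 that was lower (19.1% of all genes). The rises ranged from 1.57-fold for Ifitm3 to 6.87-fold for Rtp4.

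**Figure D1:**
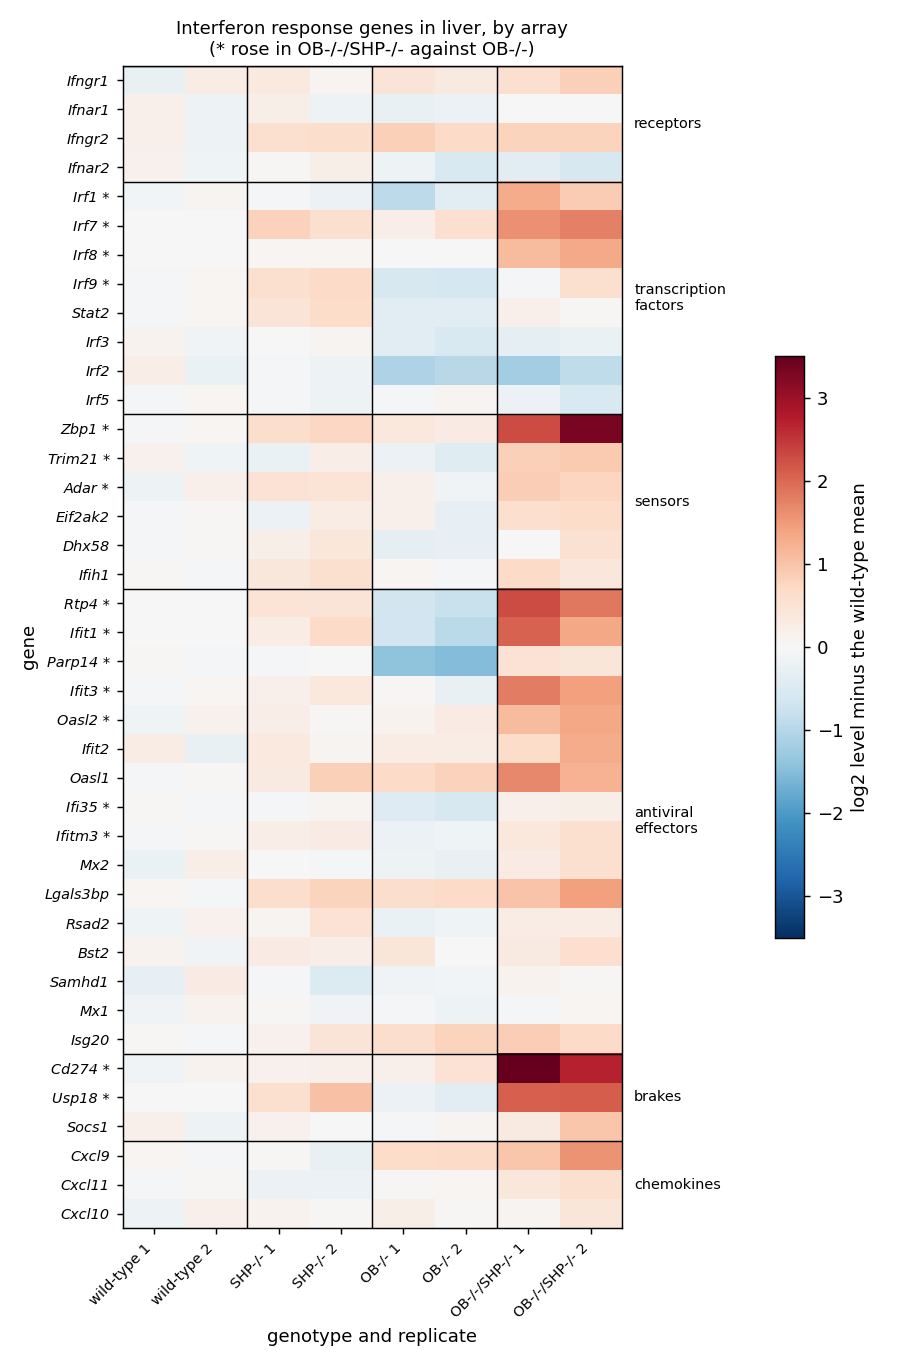
Level of each of the 40 measured interferon response genes on each of the 8 arrays, as the log2 level minus the mean of the 2 wild-type arrays (colour), with genes in rows grouped by role and arrays in columns; an asterisk marks the 16 genes that rose in OB-/-/SHP-/- against OB-/-. The darkest red lies in the OB-/-/SHP-/- columns, at Cd274, Zbp1, Rtp4, Ifit1 and Usp18, and the blue of the OB-/- columns at Parp14, Irf2, Ifit1, Rtp4 and Irf1.

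Among the antiviral effectors, 7 of 16 rose. Rtp4, an interferon-induced protein that restricts RNA viruses, read 7.25 and 7.30 for wild-type, 7.75 and 7.72 for SHP-/-, 6.62 and 6.49 for OB-/- and 9.55 and 9.12 for OB-/-/SHP-/-. Both OB-/-/SHP-/- arrays lay above all the others and both OB-/- arrays below them. The rise against OB-/- was 2.78 ± 0.16 on the log2 scale (6.87-fold, adjusted p = 1.6e-06). Ifit1, which binds viral RNA that lacks the cap of host messages, showed the same order of genotypes. It read 5.65 and 5.36 for OB-/-, 6.32 and 6.30 for wild-type, 6.57 and 6.97 for SHP-/- and 8.37 and 7.67 for OB-/-/SHP-/-, and rose 5.72-fold (2.52 ± 0.22, adjusted p = 6.9e-05). Its partner Ifit3 stood at 6.82 and 6.53 for OB-/- and 8.57 and 8.22 for OB-/-/SHP-/-, with 6.72 and 6.84 for wild-type and 6.95 and 7.15 for SHP-/-, a rise of 1.72 ± 0.16 (adjusted p = 1.4e-04). Parp14, an ADP-ribosyltransferase, read 6.99 and 6.92 for wild-type and 6.90 and 6.97 for SHP-/-, but 5.54 and 5.45 for OB-/- and 7.46 and 7.37 for OB-/-/SHP-/-. The rise of 1.93 ± 0.13 (adjusted p = 6.4e-06) thus started from a level well below wild-type.

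The remaining effectors that rose did so by smaller amounts. Oasl2, a relative of the 2'-5' oligoadenylate synthetases, read 3.52 and 3.84 for wild-type, 3.91 and 3.72 for SHP-/-, 3.79 and 3.97 for OB-/- and 4.80 and 5.04 for OB-/-/SHP-/-, a rise of 1.04 ± 0.16 (adjusted p = 0.00605) at a dim probe set, one whose mean lay below the 40th percentile of all probe sets. Ifi35, an interferon-induced leucine zipper protein, read 7.61 and 7.54 for wild-type, 7.52 and 7.68 for SHP-/-, 7.14 and 7.00 for OB-/- and 7.75 and 7.77 for OB-/-/SHP-/-, and rose by 0.69 ± 0.13 (adjusted p = 0.0199). Ifitm3, which blocks the entry of viruses through endosomes, was bright on every array, at 11.38 and 11.45 for wild-type, 11.66 and 11.69 for SHP-/-, 11.21 and 11.26 for OB-/- and 11.79 and 11.99 for OB-/-/SHP-/-, and rose by 0.65 ± 0.13 (adjusted p = 0.0283). All 3 were higher on both OB-/-/SHP-/- arrays than on any other array. The other 9 effectors were not called, with differences from 0.08 for the exonuclease Isg20 to 0.72 for Ifit2. Of these, Oasl1 at 0.72, Mx2 at 0.65, Lgals3bp at 0.57 and Rsad2 (viperin) at 0.46 each had an unadjusted p below 0.05, as did Ifit2.

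Of the 3 brakes on signalling or on T cells, 2 rose. Usp18, the protease that removes ISG15 from proteins and damps signalling at the type I receptor, read 6.37 and 6.39 for wild-type, 6.94 and 7.40 for SHP-/-, 6.16 and 6.01 for OB-/- and 8.48 and 8.49 for OB-/-/SHP-/-, and rose 5.27-fold (2.40 ± 0.16, adjusted p = 6.4e-06). Cd274, which encodes the T cell checkpoint ligand PD-L1, was between 4.59 and 5.20 on the 6 other arrays and 8.19 and 7.38 for OB-/-/SHP-/-, a rise of 6.71-fold against OB-/- (2.75 ± 0.23, adjusted p = 3.8e-05). Socs1, the inhibitor of Janus kinases, was measured by a dim probe set at 4.13 and 4.26 for OB-/- and 4.48 and 5.14 for OB-/-/SHP-/- and was not called (0.61 ± 0.20, adjusted p = 0.22). The CXCR3 chemokines, which attract T cells, were not called either. Cxcl9 differed by 0.62 ± 0.19 (adjusted p = 0.166), Cxcl11 by 0.43 ± 0.13 (adjusted p = 0.164) and Cxcl10 by 0.14 ± 0.17 (adjusted p = 0.837).

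Of 8 transcription factors, 4 rose. Irf1, a factor that interferon gamma induces and that drives many of its targets, read 7.94 and 8.16 for wild-type, 8.01 and 7.84 for SHP-/-, 7.13 and 7.69 for OB-/- and 9.34 and 8.95 for OB-/-/SHP-/-. It rose 3.34-fold against OB-/- (1.74 ± 0.20, adjusted p = 7.3e-04). Irf8, a factor of macrophages and dendritic cells, lay between 5.67 and 5.76 on all 6 other arrays and at 6.80 and 7.03 for OB-/-/SHP-/-, a rise of 1.23 ± 0.13 (adjusted p = 5.0e-04). Irf7, which amplifies type I interferon production, was lowest at 6.83 and 6.84 for wild-type, read 7.06 and 7.43 for OB-/- and 7.65 and 7.39 for SHP-/-, and was highest at 8.42 and 8.60 for OB-/-/SHP-/-. It rose by 1.27 ± 0.16 (adjusted p = 0.0018) against OB-/-. Irf9, the DNA-binding subunit of the STAT complex of type I interferon, rose by 0.85 ± 0.18 (adjusted p = 0.0374), but its OB-/-/SHP-/- arrays (6.52 and 7.13) did not pass those of SHP-/- (7.13 and 7.25) and overlapped those of wild-type (6.51 and 6.63). OB-/- was the genotype that stood low for Irf9, at 6.01 and 5.94. Irf9 is the one among the 16 members that rose whose OB-/-/SHP-/- arrays were not both above every other array. The 16 were picked by a rise against OB-/-, which favours high OB-/-/SHP-/- arrays. The share of all genes with that order was not counted. The partner of Irf9, Stat2, differed by 0.49 ± 0.14 (adjusted p = 0.126), and Irf2, Irf3 and Irf5 by -0.03, 0.19 and -0.39, without a call.

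Sensors of nucleic acid and related enzymes rose in 3 of 6 cases, namely Zbp1, Trim21 and Adar. Zbp1, which recognises left-handed nucleic acid and can start cell death, read 4.53 and 4.65 for wild-type, 5.20 and 5.32 for SHP-/-, 4.95 and 4.88 for OB-/- and 6.88 and 7.91 for OB-/-/SHP-/-, and rose 5.56-fold (2.48 ± 0.25, adjusted p = 3.0e-04). The OB-/-/SHP-/- arrays differed by about a log2 unit from each other and still lay above all others. Trim21, a ubiquitin ligase that binds antibody-coated viruses in the cytosol, stood at 6.27 and 6.06 for OB-/- and 7.32 and 7.40 for OB-/-/SHP-/-, with 6.63 and 6.34 for wild-type and 6.26 and 6.72 for SHP-/-, a rise of 1.20 ± 0.18 (adjusted p = 0.00463). Adar, which edits adenosine in double-stranded RNA, read 5.58 and 5.92 for wild-type, 6.26 and 6.23 for SHP-/-, 5.93 and 5.64 for OB-/- and 6.62 and 6.50 for OB-/-/SHP-/-, a rise of 0.78 ± 0.16 (adjusted p = 0.0283). The RNA sensor Ifih1 (MDA5) at 0.52, its relative Dhx58 at 0.59 and the kinase Eif2ak2 (PKR) at 0.67 were not called, each with an unadjusted p below 0.05. None of the 4 receptor genes was called here by limma, 0 of them also had an unadjusted p below 0.05, and their differences ran from -0.11 for Ifnar2 to 0.32 for Ifngr1.

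Of these 16 calls, 10 (Rtp4, Ifit1, Ifit3, Parp14, Usp18, Cd274, Irf1, Irf7, Irf8 and Zbp1) held with any single array left out. Adar and Ifi35 were lost without either OB-/- or either OB-/-/SHP-/- array (adjusted p up to 0.299 and 0.204), and Ifitm3 and Irf9 without either wild-type array, either OB-/- array or OB-/-/SHP-/- replicate 2 (up to 0.189 and 0.281). Oasl2 was lost without OB-/- replicate 1 or OB-/-/SHP-/- replicate 2 (up to 0.0862), and Trim21 without OB-/- replicate 2 (0.0776). The count of calls was 11 without OB-/- replicate 1 and 11 without it and SHP-/- replicate 1 together.

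Samhd1, the enzyme that destroys the nucleotides viruses need for DNA synthesis, gave a different answer by probe set. Its brightest probe set, 1420273_x_at (the x marks probes that may bind other sequences), read 6.66 and 7.22 for wild-type, 6.90 and 6.46 for SHP-/-, 6.81 and 6.84 for OB-/- and 7.07 and 6.98 for OB-/-/SHP-/- and was not called (0.20 ± 0.20, adjusted p = 0.812 with every probe set tested by itself). Probe set 1418131_at read 6.33 and 6.08 for wild-type, 6.14 and 5.96 for SHP-/-, 5.87 and 5.84 for OB-/- and 8.82 and 9.30 for OB-/-/SHP-/-, a rise of 3.20 ± 0.17 (adjusted p = 2.6e-06). That rise was larger than the one of any of the 16 called members. Probe set 1434438_at rose as well, from 6.08 and 5.84 for OB-/- to 7.75 and 8.39 for OB-/-/SHP-/- (2.11 ± 0.19, adjusted p = 2.0e-04), and 1420272_at differed by 0.50 ± 0.16 (adjusted p = 0.248). Of all single-gene probe sets tested this way, 0.829% rose and 0.589% fell. With the mean of its 4 probe sets, Samhd1 rose by 1.50 (adjusted p = 3.0e-04). Which of these probe sets measures the Samhd1 transcript best was not tested. The further probe sets of Zbp1 (2.19), Trim21 (1.45) and Irf8 (1.45) rose with the ones used, whereas the other, dim probe set of Rtp4 differed by 0.50 and was not called (adjusted p = 0.117).

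**Figure D2:**
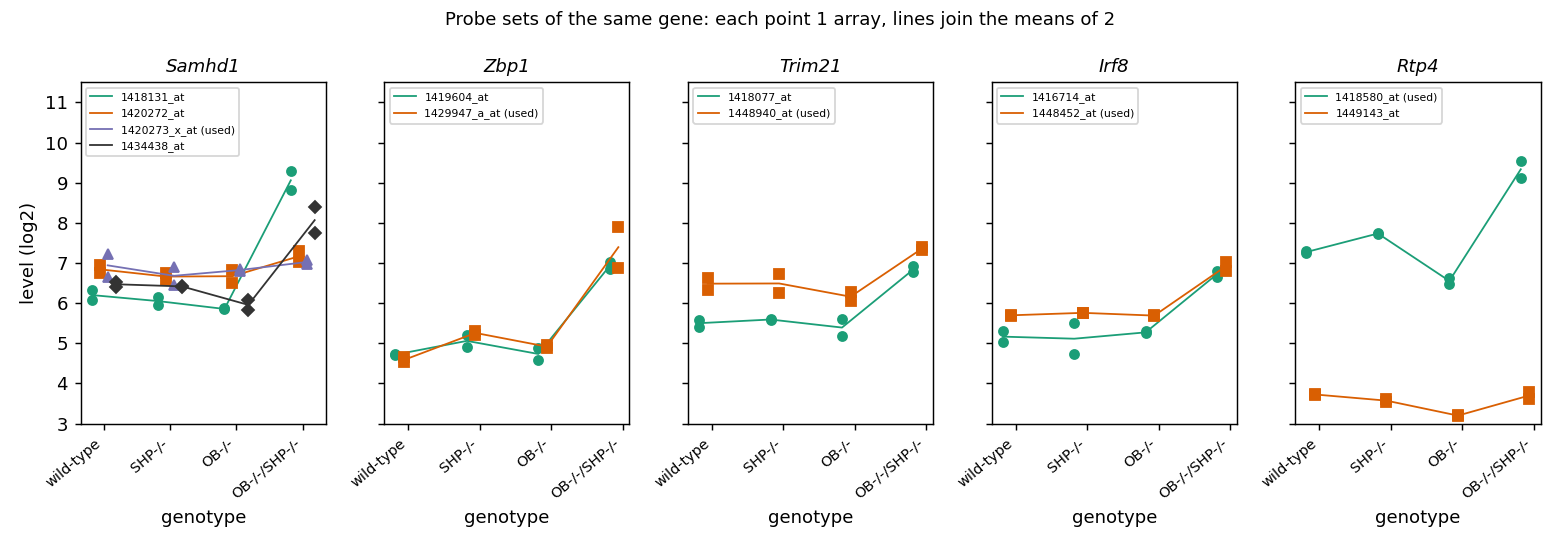
Level (log2) of every probe set assigned to Samhd1, Zbp1, Trim21, Irf8 or Rtp4 alone, by genotype, with 1 point per array and lines joining the means of the 2 arrays; the set used for the gene is marked. For Samhd1 the sets 1418131_at and 1434438_at rise in OB-/-/SHP-/- while the set used stays near 7, and for Zbp1, Trim21 and Irf8 both sets rise.

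Promoters are shown for 4 members that rose and hold a match to an interferon motif, and for Cd274, which rose 6.71-fold and holds none. They are the 250 bases before the start of the gene in RefSeq (GRCm38.p6), 5' to 3' on the strand of the gene. The motifs searched on both strands were the core of the interferon-stimulated response element (ISRE) that IRF proteins and the STAT2 complex bind, spelled GAAA, any 2 bases, GAAA, and the gamma-activated site (GAS) that STAT dimers bind, spelled TTCNNNGAA. Capitals mark the matches.
Ifit1, chr19:34640639-34640888, plus strand: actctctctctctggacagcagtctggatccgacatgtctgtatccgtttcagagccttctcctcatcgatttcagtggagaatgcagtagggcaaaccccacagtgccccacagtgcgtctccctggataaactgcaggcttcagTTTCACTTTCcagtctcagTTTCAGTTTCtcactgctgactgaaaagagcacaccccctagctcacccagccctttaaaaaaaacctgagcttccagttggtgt
Ifit3, chr19:34583279-34583528, plus strand: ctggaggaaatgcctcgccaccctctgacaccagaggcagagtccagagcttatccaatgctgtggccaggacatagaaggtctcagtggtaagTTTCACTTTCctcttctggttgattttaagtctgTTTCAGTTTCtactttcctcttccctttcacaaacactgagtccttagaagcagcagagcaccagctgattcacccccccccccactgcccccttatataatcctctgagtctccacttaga
Irf1, chr11:53769764-53770013, plus strand: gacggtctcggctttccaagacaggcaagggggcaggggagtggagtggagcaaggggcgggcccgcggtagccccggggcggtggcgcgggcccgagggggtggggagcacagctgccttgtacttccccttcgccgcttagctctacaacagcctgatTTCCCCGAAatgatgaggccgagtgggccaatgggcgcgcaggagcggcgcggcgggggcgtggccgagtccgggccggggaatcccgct
Irf8, chr8:120736108-120736357, plus strand: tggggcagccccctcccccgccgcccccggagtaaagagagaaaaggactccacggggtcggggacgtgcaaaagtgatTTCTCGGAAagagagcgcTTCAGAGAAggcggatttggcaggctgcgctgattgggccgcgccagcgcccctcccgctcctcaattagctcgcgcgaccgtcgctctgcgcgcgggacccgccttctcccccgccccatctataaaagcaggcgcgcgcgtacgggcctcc
Cd274, chr19:29367188-29367437, plus strand: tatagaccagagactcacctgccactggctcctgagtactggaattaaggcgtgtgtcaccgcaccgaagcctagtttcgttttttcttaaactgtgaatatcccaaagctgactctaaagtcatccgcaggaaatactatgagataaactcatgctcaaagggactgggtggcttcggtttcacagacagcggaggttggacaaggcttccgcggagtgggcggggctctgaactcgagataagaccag
Ifit1 and Ifit3 each hold 2 matches to the ISRE core, lying on the opposite strand. Irf1 holds 1 GAS match, in 1 of its 2 annotated windows, and Irf8 holds 2. Of the 44 listed members, 36 matched a promoter entry, with 44 windows that also take in 50 bases after the start. Among those windows 14 held the ISRE core and 13 the GAS, against 3.44% and 8.3% of all 32851 windows in the table. ISRE matches overlapped one another in Isg15, Bst2, Socs1 and Trim21, and overlapped a GAS match in Bst2 and Ifitm3. By gene, 8 of the 12 rising members with an entry held at least 1 of the motifs, and so did 13 of the 20 measured members with an entry that were not called. A match is a run of letters and was not tested for binding.

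In leptin-intact mice, SHP-/- minus wild-type, 0 of the 40 members were called by limma, against 0.226% of all genes that rose and 0.0968% that fell. The count was also 0 with the trended and the robust eBayes settings. At an unadjusted p below 0.05, 11 members were higher (3.65% of all genes) and 0 were lower (3.47% of all genes). The median over the members was 0.19, against -0.03 over all genes. Usp18 had the largest difference, at 0.79 ± 0.16 (adjusted p = 0.0911), followed by Lgals3bp at 0.70 ± 0.17 (adjusted p = 0.157), Irf7 at 0.68 ± 0.16 (adjusted p = 0.154) and Zbp1 at 0.67 ± 0.25 (adjusted p = 0.577). Irf9 at 0.62, Ifngr2 at 0.58, Oasl1 at 0.56, Stat2 at 0.55, Adar at 0.49, Ifih1 at 0.47 and Rtp4 at 0.46 were the others. The arrays of the 2 genotypes did not overlap for any of these 11. They were picked by their p-value, which favours such an order, and its share over all genes was not counted for this comparison. Without SHP-/- replicate 1, the Fos-high array, Usp18 alone was called (1.02, adjusted p = 0.0214). Markers of Kupffer cells and macrophages, the resident phagocytes of liver, were higher in the same comparison. Of these, 10 of 11 were higher at an unadjusted p below 0.05, with a median of 0.84. The 3' minus 5' offsets of wild-type and SHP-/- differed too, at 0.90 and 0.27 for Gapdh and 1.88 and 1.30 for Actb. The part of the markers and of RNA quality in the result was not tested.

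The interaction compares the effect of SHP loss between leptin-null and leptin-intact mice, which rest on separate arrays. It was positive and called for 8 of 40 members, against 0.355% of all genes, and negative and called for 0, against 0.194% of all genes. Cd274 had the largest interaction, at 2.58 ± 0.32 (adjusted p = 0.0025), since its level differed by 0.17 ± 0.23 with leptin and by 2.75 ± 0.23 without it. Rtp4 followed at 2.32 ± 0.22 (adjusted p = 3.1e-04), with 0.46 against 2.78, and Ifit1 at 2.05 ± 0.31 (adjusted p = 0.0118), with 0.46 against 2.52. For Parp14 (1.95 ± 0.18, adjusted p = 2.6e-04) and Irf1 (1.87 ± 0.28, adjusted p = 0.0118) the leptin-intact difference was -0.02 and -0.13. Usp18 (1.61 ± 0.23, adjusted p = 0.00732), Ifit3 (1.46 ± 0.23, adjusted p = 0.0174) and Irf8 (1.16 ± 0.19, adjusted p = 0.0197) completed the 8. By this test the difference made by SHP loss was larger in leptin-null than in leptin-intact liver for these 8. For Parp14 it takes in an OB-/- level 1.46 below wild-type, with OB-/-/SHP-/- 0.46 above it. Of 11 macrophage markers, 0 were called in the interaction and 6 were lower at an unadjusted p below 0.05 (464 of all 12393 genes). Their median was -0.86, against 0.04 over all genes. Of 5 pancreatic acinar genes, Prss2 (-2.90) and Clps (-3.13) fell. The Gapdh offset was 0.90 for wild-type and -0.04 to 0.27 for the other genotypes. The part of these was not tested.

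**Figure D3:**
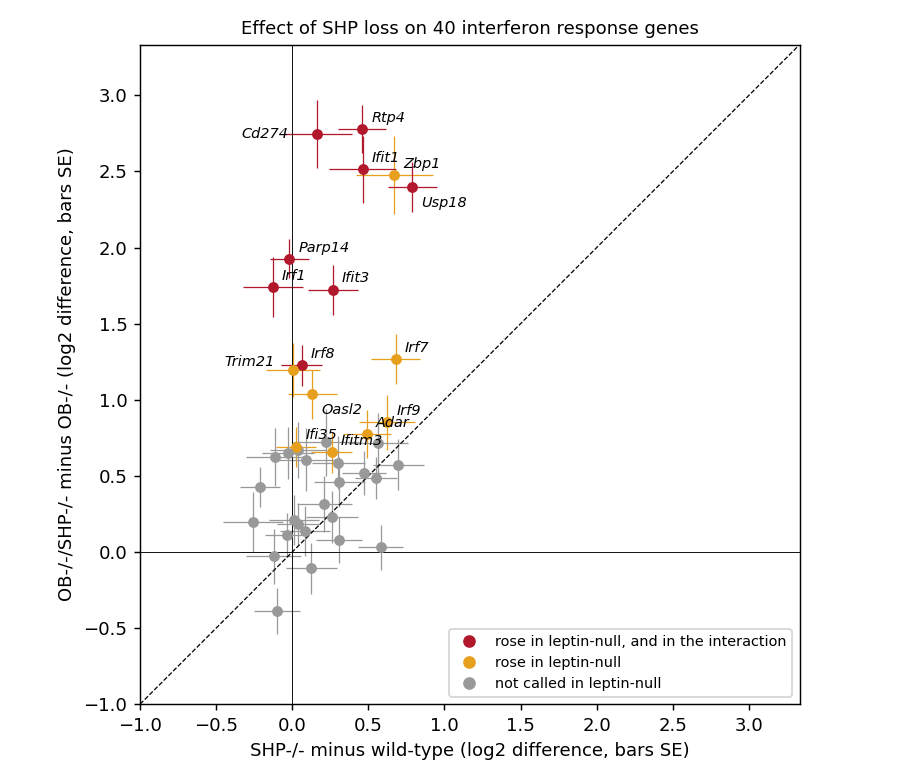
Effect of SHP loss on each of the 40 members in leptin-intact mice (x axis, SHP-/- minus wild-type) and in leptin-null mice (y axis, OB-/-/SHP-/- minus OB-/-), both as log2 differences with bars of 1 SE; the dashed line marks equal effects. The 8 red genes, called in the interaction, lie far above the line, with Cd274 at 0.17 and 2.75.

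Other members lay nearer to equal effects. Irf7 differed by 0.68 with leptin and 1.27 without it (interaction 0.59 ± 0.23, adjusted p = 0.493), Irf9 by 0.62 and 0.85 (0.23 ± 0.26, adjusted p = 0.89) and Adar by 0.49 and 0.78 (0.28 ± 0.22, adjusted p = 0.83). Their interactions were not called, which does not show that the effects are equal. Zbp1 was not called at 1.80 ± 0.36 (adjusted p = 0.0609), whereas its other probe set passed (1.85 ± 0.22, adjusted p = 0.00297 with every probe set tested by itself), and so did that of Trim21 (1.36 ± 0.23, adjusted p = 0.0308). The other probe set of Irf8 did not pass (1.50 ± 0.31, adjusted p = 0.0706), nor did that of Rtp4 (0.66 ± 0.18, adjusted p = 0.234). Samhd1, not called with the probe set used, had an interaction of 3.35 ± 0.25 (adjusted p = 1.4e-04) with 1418131_at and of 2.16 ± 0.27 (adjusted p = 0.00441) with 1434438_at, where 0.275% of probe sets were called above 0 and 0.236% below. Of the 8 calls, Cd274, Parp14 and Rtp4 held with any single array left out. With either wild-type array or OB-/- replicate 2 left out, Ifit1 and Usp18 were lost (adjusted p up to 0.0987 and 0.0671), Irf1 without either wild-type array or OB-/- replicate 1 (0.108), Ifit3 without either wild-type array, OB-/- replicate 2 or OB-/-/SHP-/- replicate 1 (0.126), and Irf8 without either wild-type array, either OB-/- array or OB-/-/SHP-/- replicate 2 (0.115). The count was 3 without either wild-type array, 4 without OB-/- replicate 2 and 3 without OB-/- replicate 1 and SHP-/- replicate 1 together.

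**Figure D4:**
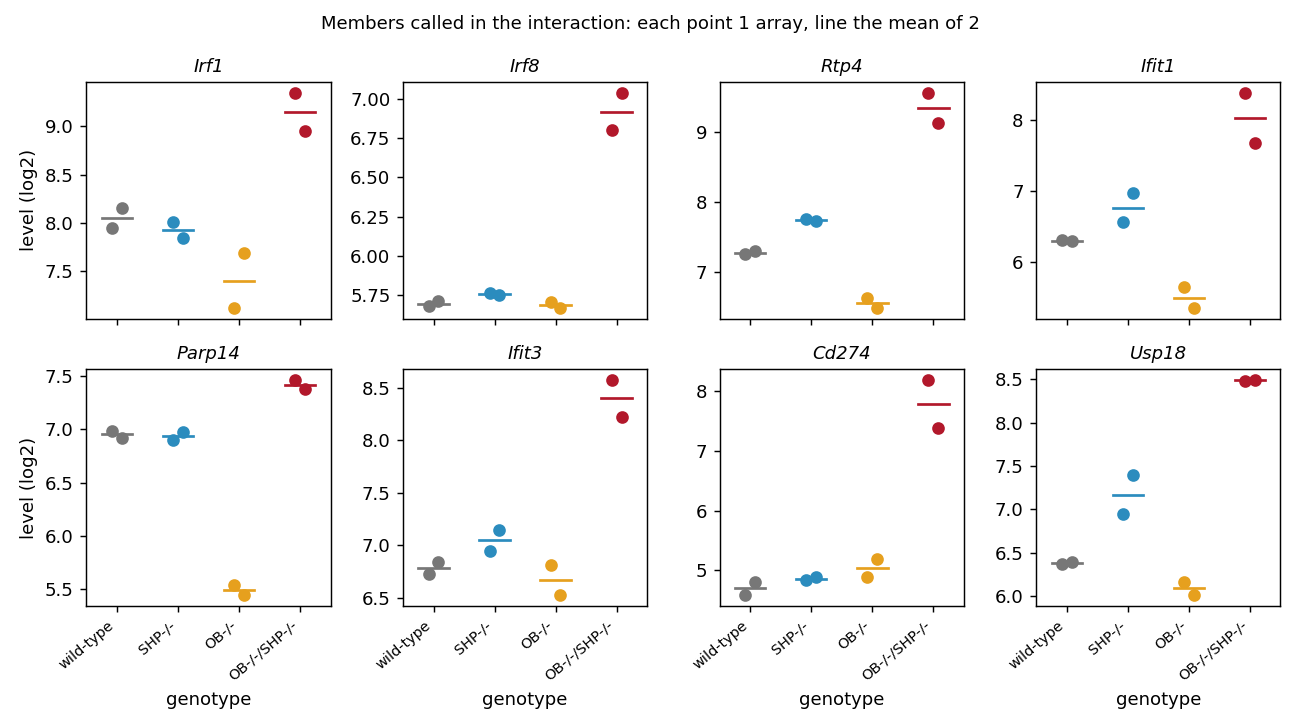
Levels (log2) of the 8 members called in the interaction, by genotype, with 1 point per array and a line at the mean of 2; each panel has its own y axis. In every panel both OB-/-/SHP-/- points lie above all others, and for Parp14, Ifit1, Rtp4, Irf1 and Usp18 both OB-/- points lie below all others. Picking genes by the interaction favours both orders.

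Leptin loss with SHP present, OB-/- minus wild-type, moved some members up and others down. It raised 5 of 40, against 7.58% of all genes, and lowered 8, against 9.36% of all genes. The median was -0.08, close to the -0.01 over all genes. The raised count is not far from the share of all genes and is not read as particular to the members. This comparison and OB-/-/SHP-/- minus OB-/- share the OB-/- arrays, so a low reading there lowers the one and raises the other. Parp14 fell by 1.46 ± 0.13 (adjusted p = 3.1e-05), the largest fall among the members, and then rose by 1.93 with the added loss of SHP, to a level 0.46 above wild-type. Ifit1 differed from wild-type by -0.80 ± 0.22 (adjusted p = 0.0289), Rtp4 by -0.72 ± 0.16 (adjusted p = 0.00984), Irf1 by -0.65 ± 0.20 (adjusted p = 0.0465), Irf9 by -0.59 ± 0.18 (adjusted p = 0.0469) and Ifi35 by -0.50 ± 0.13 (adjusted p = 0.0236), and all 5 fell. Irf2, an antagonist of Irf1, fell in both leptin-null genotypes. It read 7.53 and 7.05 for wild-type, 7.23 and 7.10 for SHP-/-, 6.20 and 6.30 for OB-/- and 6.06 and 6.39 for OB-/-/SHP-/-, so that leptin loss lowered it with SHP present (-1.04 ± 0.18, adjusted p = 0.0027) and absent (-0.94 ± 0.18, adjusted p = 0.00741). Irf3, which sensors activate to start interferon production, read 9.17 and 8.95 for wild-type, 9.05 and 9.15 for SHP-/-, 8.67 and 8.52 for OB-/- and 8.73 and 8.83 for OB-/-/SHP-/- and fell as well (-0.46 ± 0.14, adjusted p = 0.0431). Of its 3 other probe sets, 1 fell (-0.75) and 2 were not called (-0.19 and -0.09), and the call was lost with the mean of the 4.

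The 5 members that leptin loss raised were a receptor chain, 3 effectors and a chemokine. Ifngr2, the signalling chain of the interferon gamma receptor, read 6.33 and 5.99 for wild-type, 6.71 and 6.77 for SHP-/-, 7.00 and 6.82 for OB-/- and 6.95 and 6.93 for OB-/-/SHP-/-, a rise of 0.75 ± 0.15 (adjusted p = 0.0062). Its wild-type arrays were the lowest, and its other probe set differed by 0.10 without a call. Isg20 read 4.93 and 4.83 for wild-type, 5.03 and 5.34 for SHP-/-, 5.48 and 5.66 for OB-/- and 5.73 and 5.56 for OB-/-/SHP-/-, a rise of 0.69 ± 0.15 (adjusted p = 0.00998). Oasl1, which limits translation of Irf7, stood at 5.55 and 5.61 for wild-type, 5.88 and 6.41 for SHP-/-, 6.26 and 6.38 for OB-/- and 7.28 and 6.80 for OB-/-/SHP-/-, and rose by 0.74 ± 0.20 (adjusted p = 0.0251). Lgals3bp, a secreted glycoprotein, stepped up from 8.56 and 8.41 for wild-type to 9.09 and 9.28 for SHP-/- and 9.09 and 9.17 for OB-/-, and to 9.47 and 9.93 for OB-/-/SHP-/- (0.64 ± 0.17, adjusted p = 0.0225). Cxcl9 read 5.90 and 5.78 for wild-type, 5.88 and 5.58 for SHP-/-, 6.47 and 6.50 for OB-/- and 6.81 and 7.42 for OB-/-/SHP-/-, with both leptin-null genotypes above both leptin-intact ones (0.65 ± 0.19, adjusted p = 0.0389). Macrophage markers moved with these 5, since 10 of 11 rose in OB-/- minus wild-type, with a log2 summed level of 10.31 to 10.39 in wild-type and 11.93 to 11.97 in OB-/-, and 3 of 7 endothelial markers rose too. Their part in the result was not tested, and the Gapdh offsets of the 2 genotypes, 0.90 and -0.04, differed too.

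Of these 13 calls, 2, Parp14 and Irf2, held with any single array left out. Ifit1, Irf9, Ifi35, Oasl1, Lgals3bp and Cxcl9 were each lost on leaving out any 1 of the 4 arrays compared (adjusted p up to 0.193, 0.202, 0.151, 0.145, 0.133 and 0.178). Rtp4 was lost without either wild-type array or OB-/- replicate 2 (0.0820), Irf1 without either wild-type array or OB-/- replicate 1 (0.336), Ifngr2 without wild-type replicate 2 or OB-/- replicate 1 (0.0606), Isg20 without wild-type replicate 2 or OB-/- replicate 2 (0.0880) and Irf3 on leaving out any 1 array of the 3 other genotypes than OB-/-/SHP-/- (0.250). The count of calls was 4 without wild-type replicate 1, 2 without wild-type replicate 2 and 4 without either OB-/- array.

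With SHP absent, leptin loss had another outcome. OB-/-/SHP-/- minus SHP-/- raised 15 of 40 members, against 4.95% of all genes, and lowered 2, against 5.62% of all genes, with a median of 0.47 (0.03 over all genes). This comparison shares the OB-/-/SHP-/- arrays with those above. In it 3 of 11 macrophage markers (C1qa, C1qb and C1qc) and 2 of 7 endothelial markers (Pecam1 and Lyve1) also rose. At an unadjusted p below 0.05, 7 of the 11 macrophage markers were higher (1632 of all 12393 genes), with a macrophage median of 0.64. The part of these markers in the result was not tested. Cd274 rose by 2.92 ± 0.23 (adjusted p = 1.4e-05), Zbp1 by 2.14 ± 0.25 (adjusted p = 4.2e-04), Rtp4 by 1.60 ± 0.16 (adjusted p = 1.0e-04), Cxcl9 by 1.38 ± 0.19 (adjusted p = 0.0012), Ifit3 by 1.35 ± 0.16 (adjusted p = 4.8e-04) and Usp18 by 1.32 ± 0.16 (adjusted p = 5.0e-04). The rises of Ifit1 (1.25), Irf1 (1.22), Irf8 (1.16), Oasl2 (1.10), Irf7 (0.99), Oasl1 (0.89), Trim21 (0.87), Cxcl11 (0.69) and Parp14 (0.48) were smaller. Cxcl11 read 4.43 and 4.53 for wild-type, 4.27 and 4.26 for SHP-/-, 4.51 and 4.55 for OB-/- and 4.88 and 5.04 for OB-/-/SHP-/-. The falls were those of Irf2 and of Ifnar2, a chain of the type I receptor, which read 10.12 and 9.82 for wild-type, 10.01 and 10.18 for SHP-/-, 9.78 and 9.43 for OB-/- and 9.58 and 9.42 for OB-/-/SHP-/- (-0.60 ± 0.17, adjusted p = 0.0417), while its other probe set differed by 0.03. Because the interaction is the same number whichever gene's loss is taken first, the 8 genes called above are also those for which leptin loss acted differently with SHP absent. Cxcl11 was lost without OB-/-/SHP-/- replicate 2 (adjusted p = 0.0544), Oasl1 without SHP-/- replicate 1 or OB-/-/SHP-/- replicate 1 (up to 0.0987), Trim21 without SHP-/- replicate 1 or OB-/-/SHP-/- replicate 2 (0.0705), Ifnar2 on leaving out any 1 array of the 3 other genotypes than OB-/- (0.198) and Parp14 on leaving out any 1 of the 8 (0.154).

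Against wild-type, OB-/-/SHP-/- liver had 24 of 40 members raised, against 7.60% of all genes, and 1 lowered, Irf2 at -1.06 ± 0.18 (adjusted p = 0.00267), against 8.25% of all genes. The median was 0.63, against 0.00 over all genes. Cd274 was 8.50-fold higher than in wild-type (3.09 ± 0.23, adjusted p = 8.0e-06), Zbp1 7.00-fold (2.81 ± 0.25, adjusted p = 3.9e-05), Usp18 4.30-fold (2.10 ± 0.16, adjusted p = 1.0e-05) and Rtp4 4.17-fold (2.06 ± 0.16, adjusted p = 1.0e-05). The dim other probe sets of Rtp4 (-0.02) and Cxcl11 (-0.0038) were not called. Ifit1 (1.72), Irf7 (1.68), Ifit3 (1.61), Oasl1 (1.46), Cxcl9 (1.27), Oasl2 (1.24), Irf8 (1.22), Lgals3bp (1.21) and Irf1 (1.09) rose by more than 2-fold. Members called against wild-type and not against OB-/- were among the rest. Ifngr1, the ligand-binding chain of the interferon gamma receptor, read 6.40 and 6.91 for wild-type, 6.99 and 6.74 for SHP-/-, 7.09 and 6.98 for OB-/- and 7.23 and 7.48 for OB-/-/SHP-/- (0.70 ± 0.18, adjusted p = 0.0249). Ifih1 read 7.69 and 7.59 for wild-type, 8.04 and 8.19 for SHP-/-, 7.71 and 7.61 for OB-/- and 8.32 and 8.04 for OB-/-/SHP-/- (0.53 ± 0.14, adjusted p = 0.0292). Eif2ak2, at 4.67 and 4.74, 4.51 and 4.97, 4.87 and 4.43 and 5.29 and 5.34 in the same order, rose by 0.62, and the dim Ifit2, at 3.70 and 3.20, 3.79 and 3.56, 3.70 and 3.70 and 4.10 and 4.75, by 0.97. The further rises were Adar (0.81), Ifngr2 (0.78), Isg20 (0.77), Trim21 (0.87), Cxcl11 (0.48), Ifitm3 (0.47) and Parp14 (0.46). Markers of macrophages also rose in this comparison, 11 of 11 with a median of 1.47, as did 3 of 7 endothelial markers. The 3' minus 5' offsets of wild-type and OB-/-/SHP-/- were 0.90 and 0.07 for Gapdh and 1.88 and 0.86 for Actb. The part of the markers and of RNA quality in these calls was not tested.

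Here 13 of the 25 calls held with any array left out. Irf1 and Adar were lost without wild-type replicate 1 (adjusted p = 0.0521 and 0.0671), Ifngr2, Isg20 and Trim21 without wild-type replicate 2 (0.0562, 0.0538 and 0.0731), and Ifngr1 and Ifit2 without OB-/-/SHP-/- replicate 2 or, in turn, wild-type replicate 1 or 2 (up to 0.197 and 0.118). Cxcl11, Ifih1, Eif2ak2, Ifitm3 and Parp14 were lost without either wild-type array and without at least 1 OB-/-/SHP-/- array (up to 0.157, 0.143, 0.189, 0.186 and 0.140), Ifitm3 also without either OB-/- array. The count was 16 without wild-type replicate 2. In all, 29 members were called in at least 1 comparison, and 11 in none: Stat2, Irf5, Ifnar1, Bst2, Cxcl10, Dhx58, Mx1, Mx2, Rsad2, Samhd1 and Socs1. Other probe sets of some of these were called by themselves, with Stat2 at -0.72 ± 0.16 (adjusted p = 0.0123) in OB-/- minus wild-type, and Rsad2 at 0.87 ± 0.16 (adjusted p = 0.00473) and Dhx58 at 0.77 ± 0.18 (adjusted p = 0.0189) in OB-/-/SHP-/- minus wild-type. Among the 11, Mx1, a viral defence GTPase that carries a deletion in most inbred mouse strains, lay between 3.21 and 3.49 on every array.

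Other genes of the pathway were counted in OB-/-/SHP-/- minus OB-/-. Of the ligands and inducers, 11 were measured and 0 were called by limma, with 1 at an unadjusted p below 0.05, the macrophage cytokine Il18 at 0.65 ± 0.16 (adjusted p = 0.0791). Ifng, interferon gamma itself, lay at 3.14 and 3.04 for OB-/- and 2.94 and 3.06 for OB-/-/SHP-/-, and Ifnb1 at 3.88 and 4.00 for OB-/- and 3.88 and 4.01 for OB-/-/SHP-/-. Both were below 4.83, the 40th percentile of the probe sets, on all 8 arrays. Of 11 genes of JAK-STAT signalling and its brakes, 1 rose, Stat3 (0.81 ± 0.16, adjusted p = 0.022), and of 7 sensing adaptors and Toll-like receptors 1 rose, the RNA receptor Tlr3 (0.73 ± 0.17, adjusted p = 0.0489). Among 25 further interferon-stimulated genes 4 rose and 0 fell, namely Parp9 (1.35 ± 0.15, adjusted p = 5.6e-04), Plac8 (1.14 ± 0.20, adjusted p = 0.0117), Pml (0.77 ± 0.15, adjusted p = 0.0224) and Parp12 (0.74 ± 0.16, adjusted p = 0.0422), and Parp9, a partner of the PARP family member Parp14, also had a called interaction (1.28 ± 0.21, adjusted p = 0.0202). Stat3 and Pml were low in OB-/- and near wild-type in OB-/-/SHP-/-. Their means were 9.78 and 6.71 for wild-type, 8.95 and 5.98 for OB-/- and 9.76 and 6.76 for OB-/-/SHP-/-. Tlr3, Parp9, Plac8 and Parp12 had OB-/-/SHP-/- means above those of wild-type. Of the 25, Oas1a, Oas2 and Oas3, which make the 2'-5' oligoadenylates of antiviral defence, differed by -0.01, 0.16 and -0.02. The GBP and IRG GTPases, which interferon gamma strongly induces, rose in 11 of 11 cases with a median of 3.79, among them Gbp2 (4.86), Igtp (4.14), Gbp3 (3.79) and Gbp6 (5.14), a list picked with these data known.

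Few cell type markers were called between OB-/- and OB-/-/SHP-/-. Of 6 hepatocyte markers 1 rose, Tat (0.68 ± 0.15, adjusted p = 0.0489), and 3 were higher at an unadjusted p below 0.05 (6.42% of all genes). B cell, neutrophil and endothelial markers were called by limma in 0 of 5, 0 of 5 and 0 of 7 cases. At an unadjusted p below 0.05, 1 neutrophil marker was higher, and 1 B cell and 1 endothelial marker were lower (5.29% of all genes). Of 12 markers of T cells and natural killer cells, the sources of interferon gamma, 0 were called by limma and 0 had an unadjusted p below 0.05, with a log2 summed level of 8.42 to 8.47 in OB-/- and 8.38 to 8.61 in OB-/-/SHP-/-. The dendritic cell markers Flt3, Itgax, Xcr1, Ccr7, Cd209a and Zbtb46 were called in 0 of 6 cases (0 at an unadjusted p below 0.05), at 7.80 to 7.87 and 7.81 to 7.82. Of 11 macrophage markers 1 rose, the scavenger receptor Marco (1.60 ± 0.35, adjusted p = 0.0415), and the summed level was 11.93 to 11.97 in OB-/- and 11.75 to 12.20 in OB-/-/SHP-/-. Over all arrays, Cd3e read 6.01 to 6.62 and Cd4 5.45 to 6.06, and the other 10 markers of T and natural killer cells lay between 3.20 and 5.20. The pancreatic acinar genes Clps, Prss2 and Cpa1 were higher on both OB-/- arrays than on the other 6, while Cela1 and Cel were not. Those 3 of the 5 fell in OB-/-/SHP-/- minus OB-/-, by log2 differences of -3.31, -2.79 and -1.34, and their part in the result was not tested. The Gapdh offsets of the 2 genotypes, -0.04 and 0.07, were close.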

How the data were processed

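The deposited values, 1 per probe set and array, are log2 expression made by the authors. The submitters' processing notes name R 2.15.0. How background and probes were handled, and the log base, is not given in the sources used here, and base 2 fits the range of 2.20 to 14.19. Array medians of 5.45 to 5.56 show values already normalised between arrays. They were used as deposited. Of 22690 probe sets, 64 controls were left out, and 20380 named 1 gene (691 several, 1555 none). The gene IDs of all 40 measured members matched RefSeq (GRCm38.p6) with the same symbol. Each gene was represented by its brightest probe set (14 members had several). The number of arrays limits the precision.

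limma 3.58.1 (R 4.3.3) fitted 1 mean per genotype to all 8 arrays, with 4 residual and 7.16 prior degrees of freedom and a median SE of 0.15. P-values are two-sided and adjusted by Benjamini and Hochberg over 12393 genes in each of 6 comparisons. The procedure was tested on simulated data. Every member called in any comparison was named with its values; genes of related pathways were named when called between OB-/-/SHP-/- and OB-/- or in the interaction, up to 4 a list, and Ifng, Ifnb1, Il18, the Oas genes and marker genes were added as context. The members, lists and tests were chosen with earlier results of these data known. Dim means that the gene averaged less than 4.83, the 40th percentile over probe sets, as 5 members did: Ifit2, Oasl2, Mx1, Cxcl11 and Socs1. Promoter sequences are from RefSeq. Alternatives are given at the end, and testing every probe set by itself was added after seeing the data.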

Additional observations from a re-analysis of the deposited data

Results flagged for a closer look

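For 8 members the interaction test of limma separated SHP loss with leptin from SHP loss without it. On the log2 scale the effect was larger in leptin-null liver by 2.58 ± 0.32 for Cd274, by 2.32 ± 0.22 for Rtp4, by 2.05 ± 0.31 for Ifit1, by 1.95 ± 0.18 for Parp14, by 1.87 ± 0.28 for Irf1, by 1.61 ± 0.23 for Usp18, by 1.46 ± 0.23 for Ifit3 and by 1.16 ± 0.19 for Irf8. Adjusted p-values ran from 2.6e-04 for Parp14 to 0.0197 for Irf8. Both OB-/-/SHP-/- arrays were above the other 6 for each of the 8. The call itself favours that order, and its share over all genes was not counted.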

How the results depend on the processing

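Over the members called in a comparison, 1227 repeats under an alternative kept the call, 178 lost it and 0 changed direction. Quantile normalisation, equal array medians, the filter on dim genes, both other eBayes settings, averaging probe sets per gene, leaving out x_at and s_at sets, fitting the compared genotypes alone (not possible for the interaction), and every probe set by itself kept each of the 6 counts of called members within 1.5 times. Requiring a 2-fold change left 2 of 13 calls for OB-/- minus wild-type, 10 of 17 for OB-/-/SHP-/- minus SHP-/- and 14 of 25 for OB-/-/SHP-/- minus wild-type. Without OB-/- replicate 1 and SHP-/- replicate 1 together the counts were 5 for OB-/- minus wild-type, 11 for OB-/-/SHP-/- minus SHP-/- and 3 for the interaction; this fit has fewer arrays. With each array left out in turn, the count ran from 0 to 1 for SHP-/- minus wild-type, from 11 to 19 for OB-/-/SHP-/- minus OB-/-, from 2 to 13 for OB-/- minus wild-type, from 13 to 17 for OB-/-/SHP-/- minus SHP-/-, from 16 to 25 for OB-/-/SHP-/- minus wild-type and from 3 to 9 for the interaction. A genotype left with 1 array is assumed to vary like the others.

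Same-numbered arrays share only a number: deviations of replicate 1 from replicate 2 correlated between genotypes at r from -0.11 to 0.20. With the replicate block the counts were 0, 16, 11, 17, 24 and 9 in the order above. The calls lost with it were those of Irf1 and Irf3 in OB-/- minus wild-type and of Eif2ak2 in OB-/-/SHP-/- minus wild-type. With 2 arrays per genotype, small differences may be missed.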
